A study of Mus musculus with 12 samples.

Results

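The ITAM costimulation genes of osteoclasts were examined as a set of 10: Oscar, Trem2, Tyrobp, Fcer1g, Syk, Plcg2, Btk, Tec, Blnk and Lcp2. They are named for their roles in this pathway and were taken by symbol from the 55401 gene identifiers counted in mouse osteoclast cultures. Each symbol matched 1 identifier, and all 10 were among the 14030 genes with enough counts to be tested. All are annotated as protein-coding in GENCODE M21 (GRCm38). The receptor and adaptor genes are Oscar (chr7:3609813-3616157), Trem2 (chr17:48346401-48354147), Tyrobp (chr7:30413760-30417585) and Fcer1g (chr1:171229572-171234365). The kinase genes are Syk (chr13:52583173-52648792), Btk (chrX:134542336-134583570) and Tec (chr5:72755716-72868483), and the scaffold and phospholipase genes are Blnk (chr19:40928927-40994535), Lcp2 (chr11:34046920-34092295) and Plcg2 (chr8:117498291-117635142).

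The libraries came from bone marrow cells of wild-type mice (Impdh2 WT) and of mice with a conditional knockout of Impdh2 (Impdh2 LysM-cKO). The knockout is targeted to myeloid cells, osteoclast precursors among them. The product of Impdh2 makes guanine nucleotides. All cells were first grown for 3 days with L929 cell supernatant as the source of M-CSF, equal to 20 ng/ml of the recombinant factor, and the protocol then gives a stimulation with RANKL, the cytokine that induces osteoclasts, at 40 ng/ml. Titles divide the cultures into R40D3 and R0D3, which gives 4 groups of 2 libraries: WT R0D3, LysM-cKO R0D3, WT R40D3 and LysM-cKO R40D3. The labels do not spell out R40D3 and R0D3 and give all 8 samples the same treatment, so these titles serve as names here, and reading them as RANKL doses is an inference. Strain, age and whether the replicates came from separate animals or cultures are not given in the sources used here, so the p-values measure only the spread between these libraries, which may be technical.

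RANKL alone does not carry a macrophage precursor to a bone-resorbing osteoclast. A costimulatory signal comes from receptors such as OSCAR and TREM2, which have no signalling tail of their own and pair with the small membrane adaptors FcRγ (encoded by Fcer1g) and DAP12 (encoded by Tyrobp). The tails of these adaptors hold an immunoreceptor tyrosine-based activation motif, or ITAM, whose tyrosines are phosphorylated by Src family kinases and then bind the kinase SYK. SYK, the Tec family kinases BTK and TEC, and the scaffold proteins BLNK and SLP-76 (encoded by Lcp2) act on phospholipase Cγ2 (encoded by Plcg2), which releases calcium and thereby activates NFATc1, the transcription factor that directs osteoclast genes.

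The ITAM is the sequence that gives the set its name, and its coding bases are shown for both adaptors because SYK binds its phosphorylated tyrosines. The stretches below run 5′ to 3′ on the coding strand, are taken from the GENCODE M21 transcripts on GRCm38, and have the codons of the paired tyrosines in capitals.
Fcer1g: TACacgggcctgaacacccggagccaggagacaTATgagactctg
Tyrobp: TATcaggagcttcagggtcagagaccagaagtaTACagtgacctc
The Fcer1g stretch lies on the minus strand at chr1:171229889-171230072, where 45 coding bases are divided by an intron of 139 bases, and its tyrosines are residues 65 and 76 of 86. The Tyrobp stretch lies on the plus strand at chr7:30415670-30417382, where 45 coding bases are divided by an intron of 1668 bases, and its tyrosines are residues 92 and 103 of 114.

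The labels were checked first. Impdh2 was at 22.3 to 28.2 CPM (counts scaled to a common library size) in the 4 WT libraries and at 7.03 to 8.38 in the 4 LysM-cKO libraries. The transcript was thus lower in LysM-cKO but not absent. Total counts per library ran from 16009146 to 19221865. The summed level of 8 osteoclast markers was 249.4 to 383.4 CPM in the R0D3 libraries and 12780 to 37820 CPM in the R40D3 libraries, and that of 9 macrophage markers was 9213 to 11940 CPM in all 8. The libraries with replicate number 2 of LysM-cKO held 432 and 508 CPM of 8 stromal fibroblast markers, against 1215 to 1616 CPM in the other 6. The replicates of every group differed by more than sampling noise (chi-square divided by its degrees of freedom, 10.7 or more).

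By the level of each gene per kilobase of exon (RPKM), the adaptors were the highest of the set. In WT R0D3, Tyrobp was at 1422 RPKM, Fcer1g at 807 and Trem2 at 183, followed by Syk at 46.1. The scaffold Blnk (30.4 RPKM), Btk (28.5), Plcg2 (26.5), Tec (24.9) and Lcp2 (19.3) lay close together, and Plcg2 and Tec overlapped. Oscar was last, at 0.0168 RPKM. In WT R40D3 the order was Tyrobp (1290 RPKM), Fcer1g (538), Oscar (202), Trem2 (91.1), Syk (51.7), Lcp2 (35.7), Btk (34.0), Plcg2 (24.4), Blnk (22.3) and Tec (17.5). Oscar had moved from the last place to the third and Lcp2 from the ninth to the sixth. Lcp2 overlapped Btk there, and Plcg2 overlapped Blnk. In LysM-cKO R40D3, Trem2 (108 RPKM) and Oscar (105) overlapped and could not be ordered. The order depended on the length used: per kilobase of coding sequence, Trem2 (603) lay above Oscar (459) in WT R40D3, and Fcer1g (2124) above Tyrobp (2001) in WT R0D3. Trem2 was also nearer to the adaptors on that scale, at 1209 in WT R0D3.

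**Figure D1:**
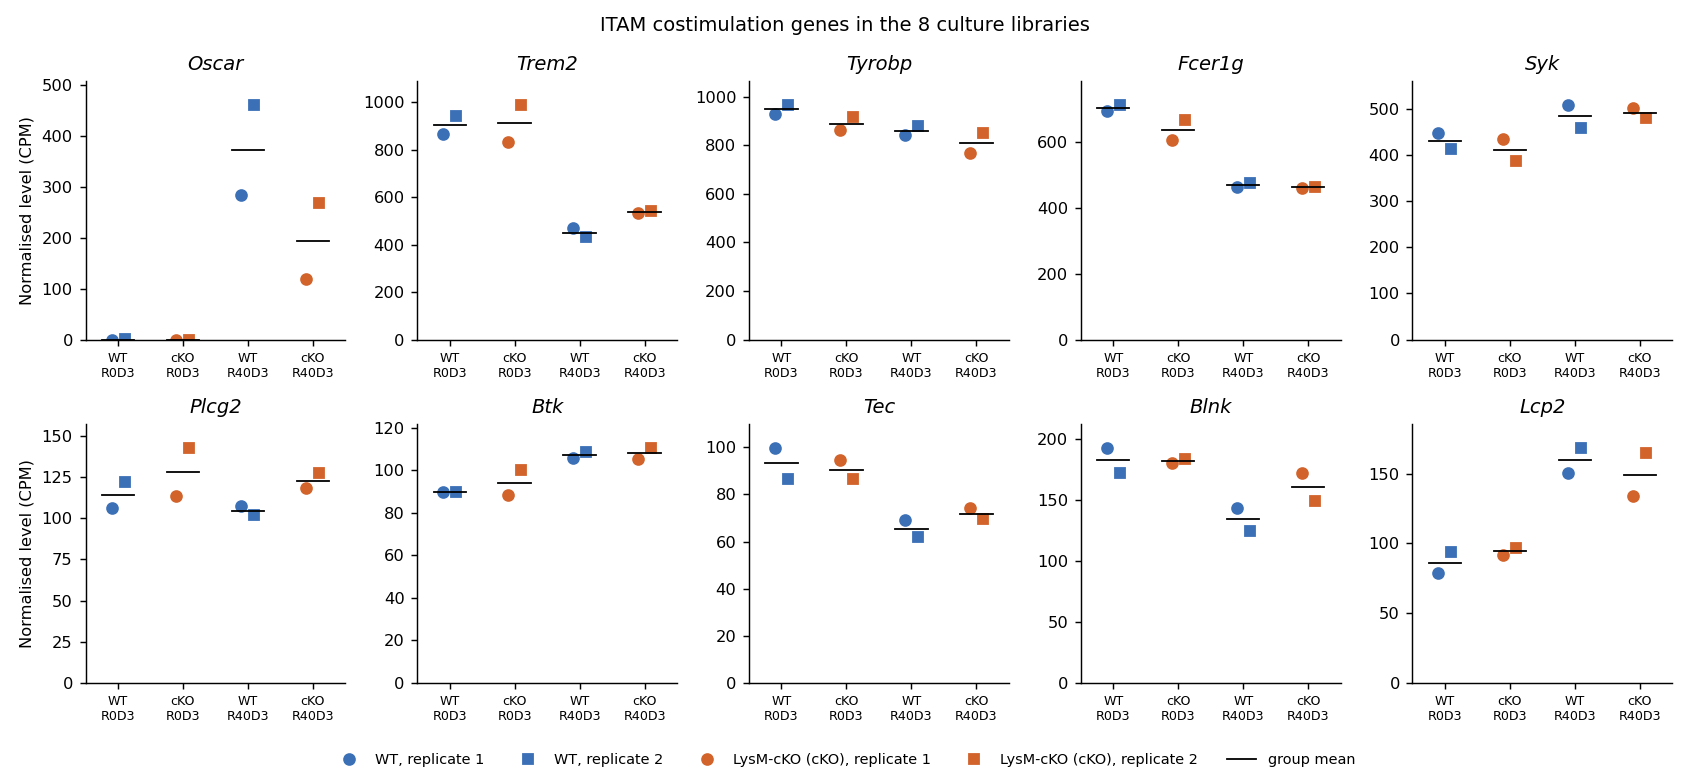
Normalised level (CPM) of each of the 10 genes in each of the 8 culture libraries, with 1 panel per gene, every axis starting at 0, circles for replicate number 1, squares for number 2 and a line at the group mean. Oscar is near 0 in the 4 R0D3 libraries and between 119 and 463 CPM in the 4 R40D3 libraries, and Trem2 is at 834 to 990 CPM in R0D3 and 430 to 540 CPM in R40D3.

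The first comparison asked how these genes differed between the R40D3 and R0D3 cultures of each genotype. Oscar and Lcp2 rose in both genotypes, and Trem2 and Fcer1g fell in both. Tec and Blnk fell in WT. Changes in Tyrobp, Syk, Btk and Plcg2 did not pass the threshold in either genotype. In WT, 6 of the 10 genes were called at an adjusted p under 0.05 in edgeR's quasi-likelihood test (2 higher, 4 lower), where 16.9% of all tested genes were called (11.4% higher, 5.52% lower). In LysM-cKO 4 of the 10 were called (2 higher, 2 lower), against 10.1% of all tested genes (6.99% higher, 3.15% lower). DESeq2 also called 6 and 4, where it called 16.9% and 11.7% of all tested genes. The genes were chosen with earlier results of these data known, so these counts are a description and no test of the set. The median log2 fold change of the 10 genes was −0.13 in WT and −0.10 in LysM-cKO, and that of all tested genes 0.0098 and 0.0094. With the replicate number as a block, 7 of 10 were called in WT (all tested genes: 28.3%) and 6 of 10 in LysM-cKO (21.3%).

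Oscar, the receptor that pairs with FcRγ and binds collagen, had the largest change of the set. It had 0 and 1 counts in the WT R0D3 libraries and 1 count in each LysM-cKO R0D3 library, with totals of at least 16009146 per library. In WT R40D3 replicates 1 and 2 it was at 284.1 and 462.5 CPM, and in the LysM-cKO R40D3 replicates at 119.0 and 268.5 CPM. The R40D3 libraries thus lay far above every R0D3 library in both genotypes, while their own levels spread widely. Over the pooled counts, 13006 against 1, the WT ratio was 12180 with a 95% exact counting interval from 2186 to 481200. The LysM-cKO ratio, from 6608 counts against 2, was 3186 with an interval from 882 to 26320. These intervals cover counting error only. Both changes passed the test (edgeR adjusted p 2.37e-05 in WT and 4.89e-05 in LysM-cKO). Oscar had enough counts to be tested only through its R40D3 libraries, so these p-values are given as a description. In such bulk RNA, fewer cells of a type and less RNA per cell cannot be told apart.

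Trem2 encodes a receptor of myeloid cells that pairs with DAP12, and it moved the opposite way. Its level in WT was 866.9 and 940.1 CPM at R0D3 and 470.5 and 430.2 CPM at R40D3. In LysM-cKO it was 833.5 and 989.7 CPM at R0D3 and 531.7 and 539.8 CPM at R40D3. No R40D3 library reached the R0D3 range of its genotype. The log2 fold change was −1.0 (SE 0.12, edgeR adjusted p 0.00199) in WT, a 2.01-fold decrease, and −0.77 (SE 0.12, adjusted p 0.00869) in LysM-cKO, a 1.70-fold decrease. The LysM-cKO call ended, narrowly, without LysM-cKO R0D3 replicate 2 (adjusted p 0.0502) or with only the 4 compared libraries in the fit (0.0506). Of 9 markers of macrophages, which express Trem2, 2 also fell in WT and 1 in LysM-cKO, where 5.52% and 3.15% of all tested genes were called lower. The estimates of 8 of the 9 were negative in WT (median −0.49) and of 7 in LysM-cKO (median −0.26). With the replicate block 5 fell in WT and 2 in LysM-cKO, where 1631 and 1153 of all 14030 tested genes were called lower. DESeq2 called 4 and 1 in either direction, where it called 16.9% and 11.7% of all tested genes. Their part in the change of Trem2 was not tested.

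The bases before the start site are shown for Oscar and Trem2, the receptors that moved in opposite directions, and for Lcp2, which rose with Oscar. Each line holds the 250 bases upstream of the RefSeq gene start in GRCm38.p6, read 5′ to 3′ on the strand of the gene, with matches to any of 5 motifs in capitals. The motifs, searched on both strands, were GGAAA (the NFAT core), GAGGAA (a PU.1 core), CACGTG and CATGTG (E-boxes) and TGANTCA (AP-1). A stretch GAGGAAA would hold both of the first pair, but none occurs in the windows shown. The Trem2 run TTTCCTTCCTC is a GGAAA match and a GAGGAA match side by side, both on the opposite strand.
Oscar: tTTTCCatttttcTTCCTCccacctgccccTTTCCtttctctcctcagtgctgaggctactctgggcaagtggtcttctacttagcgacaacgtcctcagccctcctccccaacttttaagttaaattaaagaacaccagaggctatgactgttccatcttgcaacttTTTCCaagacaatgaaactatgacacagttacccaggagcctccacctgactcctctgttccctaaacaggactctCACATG
Trem2: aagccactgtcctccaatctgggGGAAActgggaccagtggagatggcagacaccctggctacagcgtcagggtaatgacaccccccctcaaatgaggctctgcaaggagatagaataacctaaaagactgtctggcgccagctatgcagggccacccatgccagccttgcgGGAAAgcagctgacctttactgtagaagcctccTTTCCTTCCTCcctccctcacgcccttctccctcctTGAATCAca
Lcp2: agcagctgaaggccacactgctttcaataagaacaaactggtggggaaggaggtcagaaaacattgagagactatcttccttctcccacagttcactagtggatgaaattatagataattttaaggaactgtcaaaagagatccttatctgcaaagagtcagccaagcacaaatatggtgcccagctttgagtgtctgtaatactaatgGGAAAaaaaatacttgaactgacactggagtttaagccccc
The windows are chr7:3616158-3616407 (minus strand) for Oscar, chr17:48346151-48346400 (plus strand) for Trem2 and chr11:34046678-34046927 (plus strand) for Lcp2. Oscar held GGAAA at 3 places, GAGGAA once and CATGTG once, the last ending at the start site. Trem2 also held GGAAA at 3 places and GAGGAA once, and it held TGANTCA once. Lcp2 held GGAAA once. Oscar and Trem2 held the same number of GGAAA and GAGGAA matches, and whether matches relate to the changes was not tested. Counted per gene, of the 9 genes with a RefSeq window (10 windows, since Syk has 2), 7 held GGAAA, 3 GAGGAA, 2 CATGTG, 1 CACGTG and 1 TGANTCA, and counted per window, the shares among all 32851 windows of this length were 55.6%, 23.25%, 12.25%, 6.02% and 6.75%. The Blnk window, which holds a CATGTG match, and the first Syk window lie wholly within GENCODE exons (250 of 250 bases). A match is a description of the letters and not a binding site.

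Fcer1g, the gene of the adaptor FcRγ, was at 694.8 and 715.6 CPM in WT R0D3 and at 463.6 and 477.0 CPM in WT R40D3. In LysM-cKO it was at 608.9 and 669.5 CPM at R0D3 and at 462.1 and 464.6 CPM at R40D3. The 4 R40D3 libraries lay within a narrow range below all R0D3 libraries. The fall was −0.58 on the log2 scale (SE 0.09, edgeR adjusted p 0.00574) in WT and −0.46 (SE 0.09, adjusted p 0.0210) in LysM-cKO. It was not called without WT R0D3 replicate 2 (adjusted p 0.0550), without LysM-cKO R0D3 replicate 2 (0.117) or without either LysM-cKO R40D3 replicate (0.0628 and 0.0791), nor in LysM-cKO with only the 4 compared libraries (0.0984). FcRγ also serves the IgE receptor of mast cells, and of 7 mast cell and basophil markers Fcer1a, Mcpt4 and Tpsb2 had at most 3 counts in every library and the summed level was 1.06 to 2.14 CPM.

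Tyrobp, the DAP12 gene, was the most abundant of the set per exon length in every group. It was at 929.4 and 967.7 CPM in WT R0D3 and at 841.0 and 879.8 CPM in WT R40D3, without overlap. The LysM-cKO libraries held 861.3 and 914.7 CPM at R0D3 and 768.3 and 851.7 CPM at R40D3, again without overlap. These differences did not pass the test, with log2 fold changes of −0.14 (SE 0.10, edgeR adjusted p 0.420) and −0.13 (SE 0.10, adjusted p 0.499). Groups that do not overlap were common in these comparisons, at 62% of all tested genes in WT and 49.8% in LysM-cKO, and 9 of the 10 genes showed it in each genotype, all but Plcg2.

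Syk, the kinase that binds the phosphorylated ITAM, was at 449.2 and 413.6 CPM in WT R0D3 and at 510.1 and 458.3 CPM in WT R40D3. Its LysM-cKO levels were 435.8 and 386.6 CPM at R0D3 and 502.6 and 481.3 CPM at R40D3. Both R40D3 pairs lay slightly above the R0D3 pairs. Neither difference was called, at 0.17 (SE 0.10, edgeR adjusted p 0.344) in WT and 0.26 (SE 0.10, adjusted p 0.184) in LysM-cKO. With the replicate block the LysM-cKO value of 0.26 passed (SE 0.07, adjusted p 0.0292).

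The Tec family kinases Btk and Tec phosphorylate phospholipase Cγ2. Tec was at 99.85 and 86.74 CPM in WT R0D3 and at 69.19 and 61.81 CPM in WT R40D3. The LysM-cKO levels of Tec were 94.45 and 86.58 CPM at R0D3 and 74.04 and 69.68 CPM at R40D3. Every R40D3 library was below every R0D3 library. Tec fell by 0.51 on the log2 scale (SE 0.11, edgeR adjusted p 0.0168) in WT, a call that ended without WT R0D3 replicate 1 (0.121) or WT R40D3 replicate 2 (0.106). In LysM-cKO the value was −0.33 (SE 0.11, adjusted p 0.0997), which passed only with the replicate block (adjusted p 0.00963). Btk, a kinase known from B cells, was at 89.94 and 89.85 CPM in WT R0D3 and at 105.7 and 108.5 CPM in WT R40D3. Its LysM-cKO levels were 88.53 and 99.98 CPM at R0D3 and 105.5 and 110.7 CPM at R40D3. The log2 fold changes of Btk, 0.25 (SE 0.09, adjusted p 0.0921) and 0.20 (SE 0.09, adjusted p 0.218), were not called, and the WT value passed with the replicate block (adjusted p 0.0283).

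Lcp2 and Blnk encode the scaffold proteins that bring these kinases to phospholipase Cγ2. Lcp2 was at 78.41 and 93.52 CPM in WT R0D3 and at 150.3 and 168.5 CPM in WT R40D3. For LysM-cKO the levels were 91.52 and 96.77 CPM at R0D3 and 133.6 and 164.7 CPM at R40D3. All R40D3 libraries exceeded all R0D3 libraries. Lcp2 rose by 0.89 on the log2 scale (SE 0.13, edgeR adjusted p 0.00493) in WT, or 1.85-fold, and by 0.66 (SE 0.13, adjusted p 0.0228) in LysM-cKO, or 1.58-fold. The WT call was missed narrowly without WT R0D3 replicate 1 (0.0501) or WT R40D3 replicate 2 (0.0625). The LysM-cKO call was lost without LysM-cKO R0D3 replicate 1 (0.116), R0D3 replicate 2 (0.0937) or R40D3 replicate 2 (0.146), and with only the 4 compared libraries (0.0575). Of the exonic bases of Lcp2, 282 (6.32%) overlap 4930469K13Rik on the other strand, so its counts carry some uncertainty.

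Blnk, the scaffold known from B cells, was at 192.5 and 172.2 CPM in WT R0D3 and at 143.5 and 124.2 CPM in WT R40D3. Blnk in LysM-cKO was at 180.3 and 183.2 CPM at R0D3 and at 172.2 and 148.7 CPM at R40D3. The groups did not overlap in either genotype, but the distance was smaller in LysM-cKO. Blnk fell by 0.45 on the log2 scale (SE 0.11, edgeR adjusted p 0.0340) in WT, and the LysM-cKO value was −0.18 (SE 0.11, adjusted p 0.391). The WT call ended without WT R0D3 replicate 1 (0.202), WT R0D3 replicate 2 (0.0865) or WT R40D3 replicate 2 (0.150). Of 8 B cell markers, Cd22 made up most of the summed level of 31.8 to 64.1 CPM.

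Plcg2, the phospholipase on which the pathway converges, was at 106.1 and 121.8 CPM in WT R0D3 and at 107.2 and 102.2 CPM in WT R40D3. Plcg2 in LysM-cKO was at 113.8 and 142.9 CPM at R0D3 and at 118.2 and 127.7 CPM at R40D3. The R0D3 and R40D3 ranges overlapped in both genotypes. The log2 fold changes were −0.12 (SE 0.13, edgeR adjusted p 0.581) and −0.06 (SE 0.13, adjusted p 0.828).

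**Figure D2:**
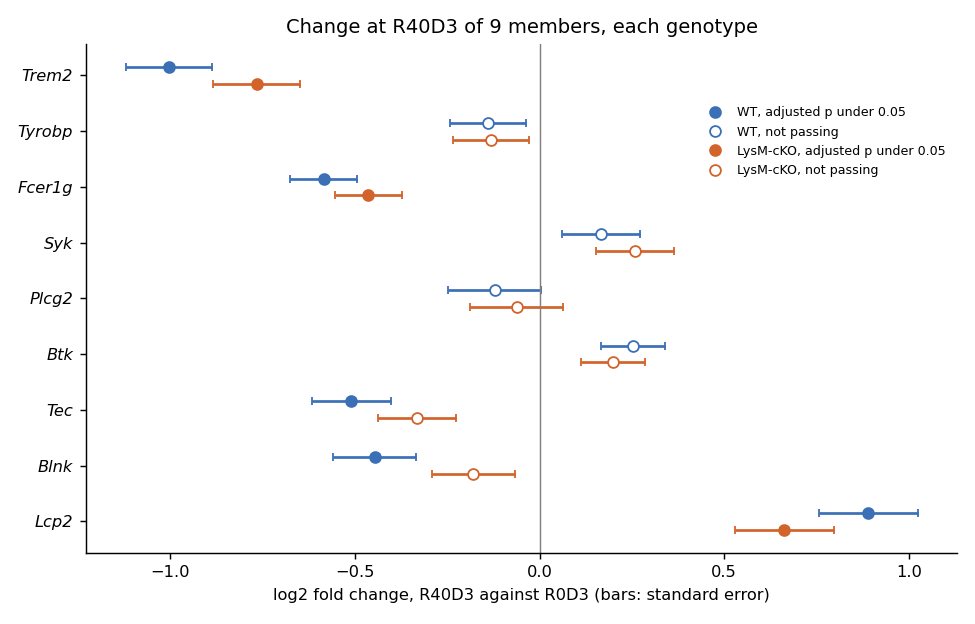
Log2 fold change of 9 of the genes between R40D3 and R0D3, for WT and LysM-cKO, with bars of 1 standard error and filled points where the edgeR adjusted p is under 0.05. Oscar is left out because its R0D3 counts are 0 or 1. Lcp2 stands alone above 0.5, and Trem2 has the lowest values, −1.0 in WT and −0.77 in LysM-cKO.

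Ratios between genes that share a step were then taken within each library, on the RPKM scale per exonic kilobase. The pairs were chosen after their values were seen, so the ratios are a description with no test. Lcp2 to Blnk was 0.547 and 0.729 in WT R0D3 and 1.41 and 1.82 in WT R40D3. In LysM-cKO it was 0.682 to 0.710 at R0D3 and 1.04 to 1.49 at R40D3. Blnk was thus the more abundant scaffold in every R0D3 library and Lcp2 in every R40D3 library. By coding length this order did not hold: the means in WT R40D3 were 94.4 for Lcp2 and 97.6 for Blnk, and their ranges overlapped. Btk to Tec was 1.07 to 1.37 over the 4 R0D3 libraries and 1.69 to 2.09 over the 4 R40D3 libraries. Fcer1g to Tyrobp was 0.540 to 0.571 and 0.414 to 0.459, and Trem2 to Tyrobp 0.126 to 0.146 and 0.0660 to 0.0933. Each of these 4 ratios separated the R40D3 from the R0D3 libraries without overlap, and how many other gene pairs do so was not computed. The size of the ratios depends on the length used. Per coding kilobase the WT R0D3 means were 2124 for Fcer1g, 2001 for Tyrobp and 1209 for Trem2. Oscar to Fcer1g, the receptor to its adaptor, reached 0.290 and 0.459 in WT R40D3 and 0.122 and 0.274 in LysM-cKO R40D3.

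**Figure D3:**
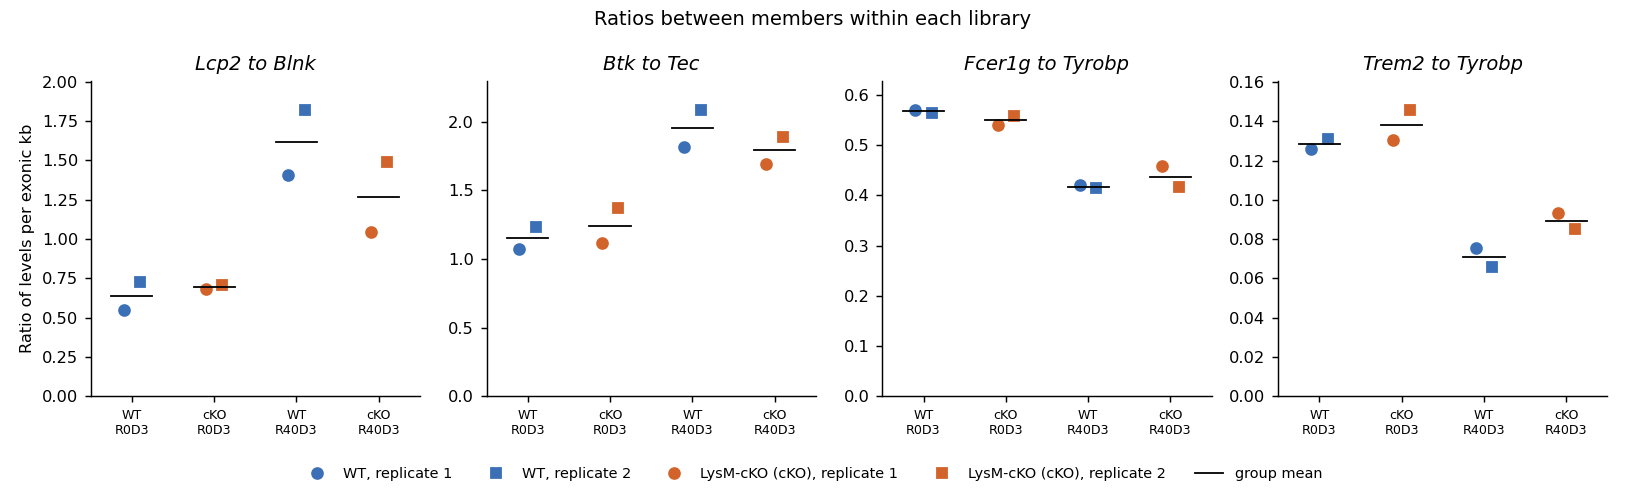
Ratio of levels per exonic kilobase within each library for Lcp2 to Blnk, Btk to Tec, Fcer1g to Tyrobp and Trem2 to Tyrobp, with circles for replicate number 1, squares for number 2 and a line at the group mean. The ratio of Lcp2 to Blnk is below 1 in the 4 R0D3 libraries and between 1.04 and 1.82 in the 4 R40D3 libraries.

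The second comparison asked whether these genes differed between LysM-cKO, in which the Impdh2 transcript was lower but not absent, and WT. At R40D3, 0 of the 10 genes were called between LysM-cKO and WT by edgeR, where 0.0143% of all tested genes were called. DESeq2 also called 0 (0.245% of the 9406 genes to which it gave an adjusted p), and at an unadjusted p under 0.05 there was 1, Oscar (7.47%). Groups did not overlap for 5 genes, against 38.7% of all tested genes: Oscar was lower, and Trem2, Plcg2, Tec and Blnk were higher, in both LysM-cKO libraries. Libraries of the same replicate number were then compared on the log2(CPM + 1) scale. LysM-cKO lay below WT in both numbers for 4 genes (all tested genes: 34.3%) and above it in both for 4 (31.7%).

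Oscar gave the largest of these differences. LysM-cKO minus WT was −1.25 in replicate number 1 (119.0 against 284.1 CPM) and −0.78 in number 2 (268.5 against 462.5 CPM). Both LysM-cKO libraries were below both WT libraries, although LysM-cKO replicate 2 lay just under WT replicate 1. The log2 fold change was −0.95 (SE 0.32) and did not pass the test (edgeR adjusted p 0.648). With the replicate block it was −1.02 (SE 0.10, adjusted p 0.00282), where 0.214% of all tested genes were called. Leaving out a library moved the unblocked value from −1.67 without LysM-cKO R40D3 replicate 2 to −0.45 without LysM-cKO R40D3 replicate 1, and to −0.53 without WT R40D3 replicate 2. The osteoclast markers moved with Oscar: their sum was 25590 and 37820 CPM in the WT R40D3 replicates and 12780 and 24180 CPM in the LysM-cKO R40D3 replicates. Most of each sum came from Mmp9, Ctsk and Acp5, with WT R40D3 means of 12360, 9542 and 7523 CPM. The next marker, Atp6v0d2, was at 994 CPM there. Per 1000 CPM of the summed markers, Oscar was at 11.1 and 12.2 CPM in WT R40D3 and at 9.31 and 11.1 CPM in LysM-cKO R40D3. On this scale LysM-cKO was below WT in both replicate numbers, while WT replicate 1 and LysM-cKO replicate 2 both stood at 11.1. The markers' part in the difference of Oscar was not tested.

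Trem2 was higher in LysM-cKO R40D3 by 0.18 and 0.33 in numbers 1 and 2 on the log2(CPM + 1) scale, and the fitted difference was 0.25 (SE 0.12, edgeR adjusted p 0.648). Blnk differed by 0.26 in both numbers (0.26 fitted, SE 0.11, adjusted p 0.648). The value of Plcg2 was 0.14 and 0.32, and that of Tec 0.10 and 0.17. None of these passed the test. The fitted log2 fold changes of Tyrobp, Fcer1g, Syk, Btk and Lcp2 lay between −0.10 and 0.02, all smaller than their standard errors, and Fcer1g changed sign when library size alone was used for scaling (−0.02 to 0.02).

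At R0D3, 0 of the 10 genes were called between the genotypes (all tested genes: 0.0143%), and 0 had an unadjusted p under 0.05 (4.42%). DESeq2 called 0 as well (0.0499%). Groups did not overlap for 32.3% of all tested genes. The adaptors Tyrobp (−0.10, SE 0.10) and Fcer1g (−0.14, SE 0.09) were lower in both LysM-cKO R0D3 libraries than in both WT R0D3 libraries, a separation seen in that direction for 14.8% of all tested genes. The edgeR adjusted p was 0.997 for both. Oscar could not be compared at this depth, with 1 count in all in WT and 2 in LysM-cKO.

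A test of the interaction asked whether the R40D3 change differed between the genotypes. It called 0 of the 10 genes and 0% of all tested genes in edgeR, with 0 of the 10 and 1.77% of all genes at an unadjusted p under 0.05, and DESeq2 called 0. The estimates (LysM-cKO change minus WT change) were 0.24 (SE 0.16) for Trem2, 0.27 (SE 0.16) for Blnk, −0.23 (SE 0.19) for Lcp2 and 0.18 (SE 0.15) for Tec, each with an edgeR adjusted p of 0.9999. The estimate of Oscar was −1.77 with an SE of 3.48, which rests on the single counts at R0D3. The calls of Tec and Blnk in WT and not in LysM-cKO are therefore not shown to differ between the genotypes.

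**Figure D4:**
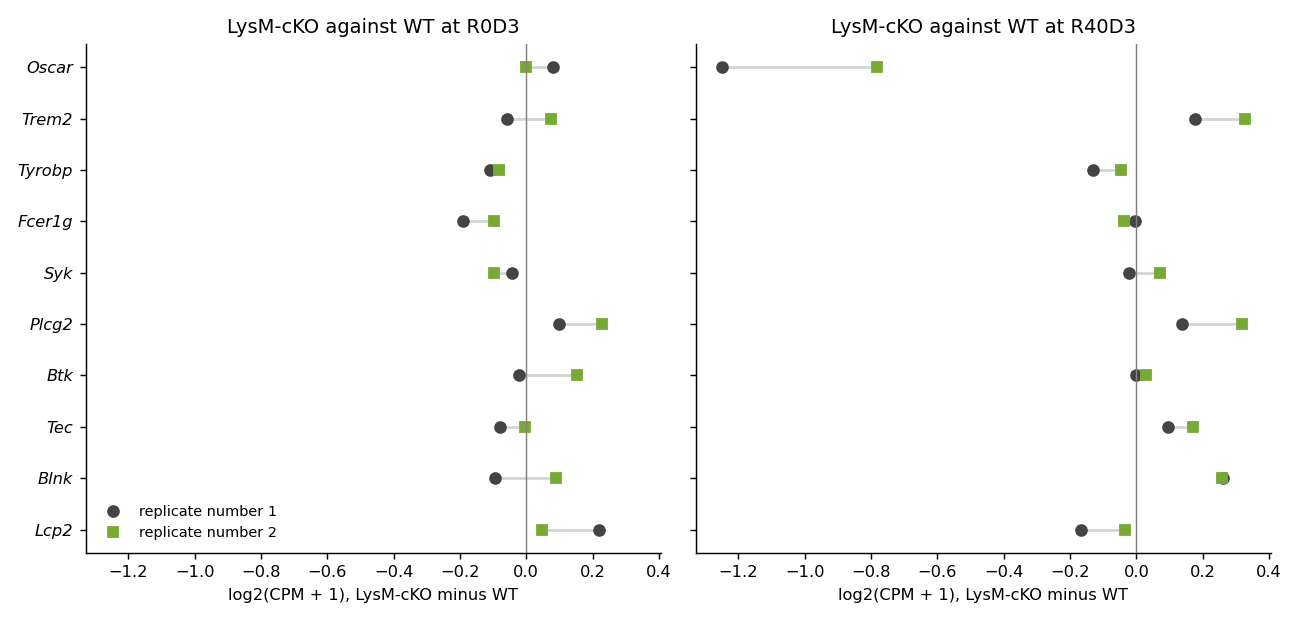
Difference LysM-cKO minus WT on the log2(CPM + 1) scale between libraries of the same replicate number, at R0D3 (left) and R40D3 (right), with a circle for number 1, a square for number 2 and a grey line joining them. At R40D3 Oscar lies at −1.25 and −0.78, while the other 9 genes lie between −0.17 and 0.33.

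The genes whose pattern was most like that of Oscar were found by Pearson's r of log2(CPM + 1) over the 8 libraries, which fall into R0D3 libraries near 0 and R40D3 libraries far above it. The closest 3 with a mean of at least 1 CPM were Rufy4 (r = 0.9998), Car2 (0.9997) and Calcr (0.9996). Car2 encodes the carbonic anhydrase that supplies protons for bone resorption, and Calcr the calcitonin receptor. In the order WT replicates 1 and 2, LysM-cKO replicates 1 and 2, the R40D3 levels were 100.4, 139.4, 53.5 and 88.2 CPM for Rufy4. Those of Car2 were 180.6, 239.7, 82.4 and 153.5 CPM, and those of Calcr 89.4, 121.9, 52.4 and 85.5 CPM. All 3 shared the order of Oscar among the R40D3 libraries, which restates how they were chosen, and all 3 reached 1 CPM on average only through those libraries. Calcr is also 1 of the 8 osteoclast markers.

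Around these 10 genes, 7 lists of other pathway genes were followed, of which 100 of 102 genes matched an identifier (Pira1 and Pira6 did not). The counts of called list genes below stand beside 16.9% of all tested genes in WT and 10.1% in LysM-cKO, or 28.3% and 21.3% with the replicate block. No gene of these lists was called between the genotypes or in the interaction. Among 16 tested receptors that couple to the same adaptors, 8 were called in WT (2 higher, 6 lower; median log2 fold change −0.53) and 5 in LysM-cKO (2 higher, 3 lower; median −0.30). Siglec15, a DAP12-coupled receptor needed for osteoclast function, was at 0.466 and 0.373 CPM in WT R0D3 and at 56.3 and 77.8 CPM in WT R40D3. Its LysM-cKO levels were 0.575 and 0.728 CPM at R0D3 and 33.2 and 52.6 CPM at R40D3. It rose by 7.29 (SE 0.40, edgeR adjusted p 0.000161) in WT and by 6.03 (SE 0.38, adjusted p 0.000364) in LysM-cKO. Pira2, an FcRγ-coupled receptor, rose by 0.72 (SE 0.17, adjusted p 0.0243) and 1.79 (SE 0.17, adjusted p 0.00150). It belongs to a family of near-identical genes, so its counts are uncertain. The Fc receptor gene Fcgr4 fell by 1.29 in WT (SE 0.29, adjusted p 0.0224), Fcgr1 fell by 1.21 in LysM-cKO (SE 0.22, adjusted p 0.0155), and the lectin gene Clec4e fell by 1.08 and 1.18 (adjusted p 0.0267 and 0.0370). Mean levels also fell for Fcgr4 in LysM-cKO (56.9 to 26.5 CPM) and for Fcgr1 in WT (83.1 to 53.8 CPM). Without WT R0D3 replicate 1 the WT count was 1, and without WT R0D3 replicate 2 or WT R40D3 replicate 2 it was 2, where the calls over all genes also fell, from 2367 to 799, 803 and 689. Without replicate 2 of LysM-cKO R0D3 or of LysM-cKO R40D3, the LysM-cKO count was 2. There the calls over all genes fell from 1422 to 399 and 475. With the replicate block the LysM-cKO count was 9.

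Upstream of SYK, Src, the kinase required for the ruffled border of osteoclasts, was at 8.04 and 8.52 CPM in WT R0D3 and at 214 and 271 CPM in WT R40D3. Src in LysM-cKO was at 10.9 and 4.49 CPM at R0D3 and at 134 and 212 CPM at R40D3. The rise was 4.87 (SE 0.39, edgeR adjusted p 0.000556) in WT and 4.48 (SE 0.39, adjusted p 0.00115) in LysM-cKO. Its relative Fyn fell, by 0.63 (adjusted p 0.0107) and 0.65 (adjusted p 0.0152). The phosphatase gene Ptprc fell by 0.43 in WT (adjusted p 0.0375), and Fgr rose by 2.09 in LysM-cKO (adjusted p 0.0368). Mean levels moved the same way for Ptprc in LysM-cKO (429 to 362 CPM) and for Fgr in WT (3.42 to 9.53 CPM). Of the 9 tested genes of the Src family and its regulators, 4 were called in WT (1 higher, 3 lower; median −0.20) and 3 in LysM-cKO (2 higher, 1 lower; median −0.18). Leaving out 1 WT library other than R40D3 replicate 1, or replicate 2 of either LysM-cKO group, brought these counts to 1. Of the kinase relatives, 2 were tested, Bmx and Plcg1, and 0 were called in either genotype by edgeR or DESeq2. At an unadjusted p under 0.05 they gave 0 in WT and 1 in LysM-cKO, against 4256 and 3364 of all 14030 tested genes.

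Among 13 tested adaptors and exchange factors, 3 were called in each genotype (1 higher, 2 lower; medians −0.04 and −0.10), in WT a share near that of all tested genes (16.9%). Lat, a membrane scaffold that binds SLP-76 and phospholipase Cγ in T cells, was at 0.466 and 0.187 CPM in WT R0D3 and at 9.41 and 9.96 CPM in WT R40D3. Its LysM-cKO levels were 0.287 and 0.606 CPM at R0D3 and 5.34 and 9.36 CPM at R40D3. Lat rose by 4.84 (SE 0.49, edgeR adjusted p 0.00112) and 4.02 (SE 0.48, adjusted p 0.00351). The summed level of 7 T cell markers moved with it, from 111 and 31.3 (replicates 1 and 2) to 455 and 159 CPM in WT and from 52.5 and 10.4 to 236 and 86.1 CPM in LysM-cKO, and nearly all of it was Cd4. Trac, a T cell receptor gene, had 2 counts in each WT R0D3 library and 0 in each LysM-cKO R0D3 library, against 31 and 34 in WT R40D3 and 18 and 10 in LysM-cKO R40D3, and it was called higher in both genotypes (edgeR adjusted p 0.00412 and 0.0137). It too had enough counts to be tested only through the R40D3 libraries, so these p-values are a description. The other 5, Cd3d, Cd3e, Cd3g, Cd8a and Lck, had at most 3 counts in every library. The part of these markers in the change of Lat was not tested. The exchange factor gene Vav3 fell by 0.69 (adjusted p 0.0114) and 0.74 (adjusted p 0.0141), and the adaptor gene Pik3ap1 by 0.40 (adjusted p 0.0309) and 0.49 (adjusted p 0.0230). Leaving out WT R0D3 replicate 1 or 2 brought the WT count to 1. In LysM-cKO, leaving out replicate 2 of R0D3 or of R40D3 did so, and the replicate block raised the count to 6.

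Downstream, Nfatc1, the transcription factor that the calcium signal activates, was at 87.8 and 79.5 CPM in WT R0D3 and at 413 and 479 CPM in WT R40D3. Nfatc1 in LysM-cKO was at 84.9 and 76.0 CPM at R0D3 and at 287 and 382 CPM at R40D3. It rose by 2.42 (SE 0.16, edgeR adjusted p 0.000264) in WT and by 2.06 (SE 0.16, adjusted p 0.000728) in LysM-cKO. Rcan1, a calcineurin regulator known as an NFAT target, rose by 2.19 (adjusted p 0.000452) and 1.72 (adjusted p 0.00157), and Creb1 fell by 0.38 in WT (adjusted p 0.0472). The mean of Creb1 in LysM-cKO went from 77.7 to 66.3 CPM. Of 17 tested genes of the calcium and NFAT arm, 5 were called in WT (4 higher, 1 lower; median −0.0018) and 3 in LysM-cKO (all higher; median 0.04). The WT count was 3 without WT R0D3 replicate 1 or 2 or WT R40D3 replicate 2, and the LysM-cKO count was 5 with the replicate block. Fos, a transcription factor gene of this arm named after its values were seen, split by replicate number in every group: the number 1 libraries held 25.6 to 66.9 CPM and the number 2 libraries 158 to 277 CPM. Its log2 fold change of 0.81 in WT had an SE of 1.20 (adjusted p 0.715), against 1.02 with an SE of 0.14 under the replicate block (adjusted p 0.000874).

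Among 26 inhibitory receptors, phosphatases and other brakes on this signal, 7 were called in each genotype (2 higher, 5 lower; medians −0.18 and −0.09). The phosphatase gene Ptpn22 rose by 1.94 (SE 0.28, edgeR adjusted p 0.00452) and 1.59 (SE 0.28, adjusted p 0.0147), and the adaptor gene Dok3 by 1.40 (SE 0.17, adjusted p 0.00239) and 0.80 (SE 0.17, adjusted p 0.0280). Lair1, an inhibitory collagen receptor, was at 86.3 and 100.1 CPM in WT R0D3 and at 35.5 and 35.1 CPM in WT R40D3. Its LysM-cKO levels were 87.9 and 154 CPM at R0D3 and 32.6 and 53.6 CPM at R40D3. Lair1 fell by 1.40 (SE 0.30, adjusted p 0.0182) and 1.49 (SE 0.30, adjusted p 0.0224), Cd300lf by 1.46 in WT (SE 0.39, adjusted p 0.0427) and Milr1 by 1.1 in LysM-cKO (SE 0.23, adjusted p 0.0239). OSCAR, which also binds collagen, thus had a transcript that rose while that of Lair1 fell. Mean levels also fell for Cd300lf in LysM-cKO (16.9 to 7.59 CPM) and for Milr1 in WT (57.0 to 26.3 CPM). The counts were 16 and 14 with the replicate block, and 3 to 5 in WT and 2 to 5 in LysM-cKO when any 1 compared library was left out.

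Of the genes for ligands and receptor partners, 7 of 8 were tested and 0 were called in either genotype by edgeR, nor was any at an unadjusted p under 0.05 (medians 0.18 and −0.15). Of all 14030 tested genes, 4256 in WT and 3364 in LysM-cKO had an unadjusted p under 0.05. DESeq2 called 1 in WT and 0 in LysM-cKO. The WT call was Apoe, a TREM2 ligand, at 15980 and 14910 CPM in WT R0D3 and 11360 and 9453 CPM in WT R40D3. Its edgeR estimate was −0.57 (SE 0.28) at an adjusted p of 0.231, against 0.0208 in DESeq2 and 0.0445 with the replicate block. Plxna1, the plexin that partners TREM2, gave 0.12 (SE 0.11) in WT and 0.25 (SE 0.11) in LysM-cKO. Col1a1, Col1a2 and Col3a1 of this list are also among the stromal markers, whose summed level was low in LysM-cKO replicate number 2.

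**Figure D5:**
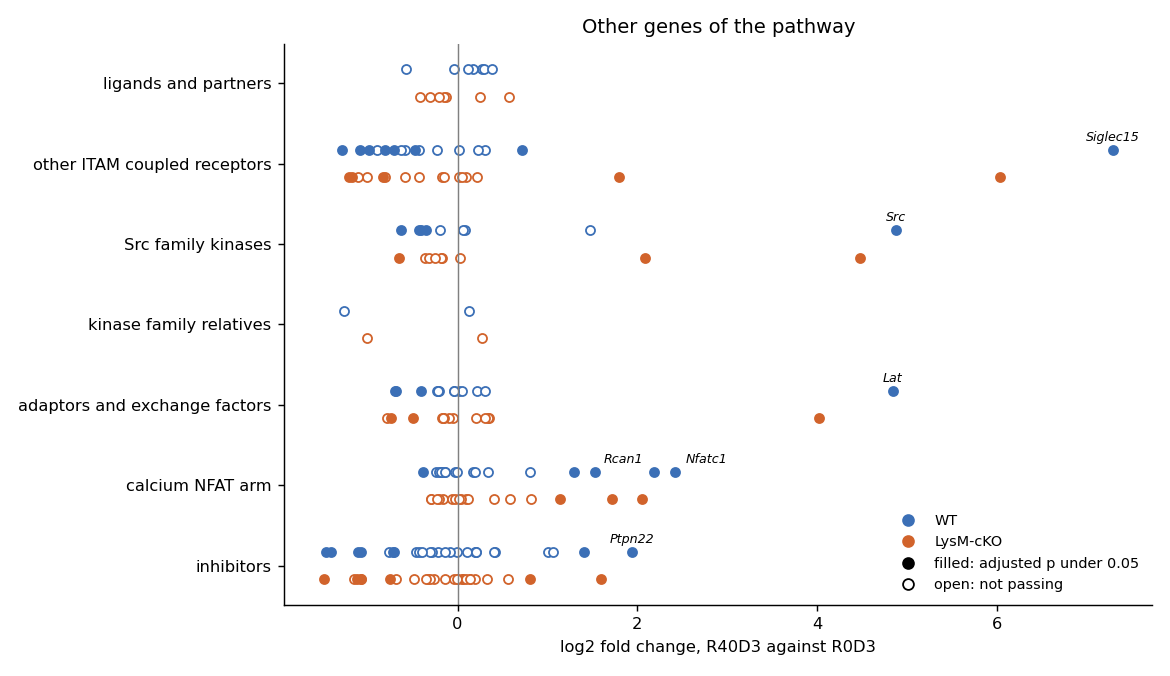
Log2 fold change between R40D3 and R0D3 of each tested gene in 7 lists of other pathway genes, blue for WT and orange for LysM-cKO, with filled points where the edgeR adjusted p is under 0.05. The list medians lie between −0.57 and 0.18, and Siglec15 (7.29), Src (4.87), Lat (4.84), Nfatc1 (2.42), Rcan1 (2.19) and Ptpn22 (1.94) are named at their WT values.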

How the data were processed

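RNA was extracted with TRIzol and sequenced from mRNA libraries, per the labels' protocols. The deposited values are raw read counts for each Ensembl gene, in a separate table for each replicate number of the cultures. The submitters' processing notes name FastQC 0.11.2, Trimmomatic 0.36, HISAT2 2.1.0, DESeq2 1.12.4 and GRCm38, with no roles. The counting tool, its annotation and its use of strand are not given in the sources used here. The forelimb libraries of the series were not used here. The genes and lists were chosen with earlier results of these data known. Counts were filtered with filterByExpr and scaled by TMM, which gave 14030 genes, and tested with edgeR 4.0.16 (quasi-likelihood, group means over all 8 libraries, Benjamini-Hochberg over all tested genes, two-sided, called at an adjusted p under 0.05). The 5 contrasts were R40D3 against R0D3 in each genotype, LysM-cKO against WT in each culture, and their interaction. CPM use the scaled library sizes, and lengths and positions come from GENCODE M21 on GRCm38. The named list genes were, per list and genotype, the 2 largest called rises and the 2 largest called falls, given 1 CPM or more on average in whichever group was higher. Pairing by replicate number was checked by correlating, across genes, how far libraries with the same number lay from their group means: r ran from 0.278 to 0.623 over the 6 pairs of groups. The labels do not say what the number marks, and the numbers were taken to pair the samples. Alternatives were DESeq2 1.42.0, other scalings, no filter, the older quasi-likelihood method of edgeR, the replicate block, only the compared libraries and leaving out each library, where the lone library left in a group is assumed to vary like the other groups.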

Additional observations from a re-analysis of the deposited data

Results flagged for a closer look

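In Tec, LysM-cKO minus WT on the log2(CPM + 1) scale was 0.0964 and 0.1702 in replicate numbers 1 and 2 at R40D3, but −0.0794 and −0.0026 at R0D3, so both numbers had one sign in one culture and the other sign in the other. In Lcp2 the order was the reverse, with −0.1684 and −0.0330 at R40D3 and 0.2204 and 0.0488 at R0D3. These signs are a description that was not tested as such, and how many of all tested genes show such a pattern was not computed. For Tec at R0D3, number 2 held 86.58 CPM in LysM-cKO against 86.74 in WT. The fitted genotype difference of Tec at R0D3 became 0.0621 without WT R0D3 replicate 1. That of Lcp2 at R40D3 became 0.0704 without LysM-cKO R40D3 replicate 1. The interaction term fitted over all 8 libraries called neither gene (Tec 0.18, SE 0.15; Lcp2 −0.23, SE 0.19; edgeR adjusted p 0.9999 for both).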

How the results depend on the processing

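With the replicate block, calls over all genes rose from 2367 to 3977 in WT R40D3 against R0D3, from 1422 to 2983 in LysM-cKO, and from 2 to 30 between genotypes at R40D3, where the set of 10 went from 0 to 1 (Oscar, −1.02). Among the 10 genes the block changed the calls of Btk, Syk, Tec and Oscar given above and no other. Fitting only the 4 compared libraries gave 533 calls in LysM-cKO, 1 of them in the set (from 4), and 0 between genotypes in either culture. DESeq2 gave 23 and 7 calls between genotypes at R40D3 and R0D3, and library size alone 0 at R40D3. Leaving out 1 library gave 689 to 1699 calls (3 to 6 in the set) in WT, 399 to 1317 (1 to 3) in LysM-cKO, and 0 between genotypes in either culture. The cause of these shifts was not tested, beyond the smaller number of libraries in the last kind of fit.

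Values near 0 changed sign. With library size alone Fcer1g at R40D3 became 0.0175 and Blnk at R0D3 0.0111, and with no filter Trem2 at R0D3 became −0.0035. Leaving out 1 library, the genotype difference at R40D3 ran from −0.047 to 0.0113 for Fcer1g, −0.0387 to 0.071 for Btk, −0.0405 to 0.0966 for Syk, −0.2718 to 0.0704 for Lcp2 and −0.1804 to 0.0087 for Tyrobp. At R0D3 it ran from −0.0843 to 0.0781 for Blnk, −0.1192 to 0.1057 for Trem2, −0.0668 to 3.20 for Oscar, −0.1428 to 0.0621 for Tec, −0.1837 to 0.0116 for Syk, −0.0047 to 0.3007 for Plcg2 and −0.0251 to 0.1278 for Btk. The interaction ran from −0.0719 to 0.1169 for Tyrobp, −0.0652 to 0.2355 for Plcg2 and −0.1109 to 0.0378 for Btk, and the LysM-cKO change of Plcg2 from −0.2228 to 0.1139. The WT R40D3 changes of the 10 genes kept their direction under every alternative run, and Oscar stayed called in both genotypes under each. The single counts of Oscar at R0D3 limit its fold change and its interaction.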
